A study of Mus musculus with 6 samples.

Results

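The genes described here code for the mitochondrial respiratory chain and the ATP synthase. They were chosen by the gene name in the array files: names that begin with Nduf, Uqcr, Atp5, or Cox followed by a digit. The rule found 83 of 28785 genes, carried by 114 probes, and the probe with the highest mean intensity stood for each gene. Of these, 36 belong to complex I, 7 to complex III, 23 to complex IV and 16 to complex V. The remaining one, Cox4nb, now named Emc8, lies beside Cox4i1 but codes for a subunit of a membrane protein complex of the endoplasmic reticulum, so it was kept in the counts and described apart. By role, 10 genes code for catalytic core subunits, 58 for other subunits, 8 for assembly or associated factors, and 6 for paralogues that are made in few tissues.

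The cells were neural stem cells cultured as monolayers from the walls of the lateral ventricles of mice at postnatal day 14 to 21. Dnmt3a-null (KO) cells were set against wild-type (WT) cells under both conditions: differentiating KO and differentiating WT cells on 2 arrays, and proliferating KO and proliferating WT cells on 4 arrays. Proliferating cultures grew with FGF-2 and EGF at 10 ng/ml each, and differentiating ones were replated with these mitogens for 2 days and then kept for 3 days without them. Each array held both genotypes of 1 condition in 2 dyes, with KO RNA in Cy5 on proliferating arrays 1 and 3 and differentiating array 2 and in Cy3 on the others. The labels call the arrays biological replicates; they do not say how the null allele was made, from which strain, or whether animals were pooled, so p-values measure the spread between these arrays.

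Complex I passes electrons from NADH to ubiquinone, complex III from ubiquinol to cytochrome c, and complex IV from cytochrome c to oxygen. The protons they pump drive complex V, the ATP synthase. Most subunits are encoded in the nucleus and made in nearly all cells, and several complex IV subunits have a second form confined to muscle, brown fat, testis or lung. Neural stem cells are known to lean on glycolysis, and neurons and glia formed from them to rely more on respiration. Dnmt3a adds methyl groups to cytosine, mostly where guanine follows (CpG).

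Dnmt3a itself, the gene that the KO cells lack, was lower in KO than in WT on all 6 arrays, by 1.38 on the log2 scale in differentiating and by 0.96 in proliferating cells (adjusted p = 0.0154 and 0.0219). The labels do not say whether its probe lies in the deleted stretch. All 9 neural stem cell markers (among them Nes, Sox2 and Fabp7) were well above background in every proliferating channel, and no microglial marker was tested because none reached that level on enough arrays. Oligodendrocyte markers were higher in KO: their summed intensity was 110000 to 122000 in differentiating KO against 13100 to 20600 in differentiating WT cells, and 5 of 8 passed the test. Neuronal markers were lower there, at 8170 to 9320 in KO against 20300 to 22500 in WT, and 5 of 7 passed. Xist, made by the inactive X chromosome, was lower and Ddx3y, a Y-linked gene, higher in KO on proliferating arrays 3 and 4 (Ddx3y log2 ratios 2.41 and 2.94, against -0.12 to 0.01 on the other proliferating arrays); the results without these arrays stand in the closing section. In bulk RNA, fewer cells of a type and less RNA per cell cannot be told apart.

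Nearly all of these genes were measurable in every sample. Of the 83, 79 were well above background in all 12 channels and 12 were saturated in at least 1 channel. The 2 members never above background were Cox4i2, the lung and hypoxia form of a complex IV subunit, and Cox8c, a testis form, and both were left out of the tests, which leaves 81. Cox8b was above background in 2 channels and Cox10, an enzyme of heme A synthesis, in 8.

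In proliferating cells the question was whether loss of Dnmt3a alters these genes in stem cells kept in mitogens. None of the 81 members passed (limma, Benjamini-Hochberg adjusted p under 0.05), where 0.952% of all genes tested did. At an unadjusted p under 0.05 there were 3 members, beside 16% of all genes. The lowest adjusted p among members was 0.276. The members' median log2 ratio of KO over WT was -0.01, as was that of all genes, and their median absolute log2 ratio was 0.072 against 0.097 for all genes. The 95% interval of the ratio lay within 1.5-fold either way for 80 of 81 members, against 82.1% of all genes; the exception was Cox7a1.

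The 3 with a low unadjusted p were Cox11, Ndufa10 and Cox18. Cox11, which helps to insert copper into complex IV, had log2 ratios of 0.05, 0.22, 0.15 and 0.25 on proliferating arrays 1 to 4 (0.17 ± 0.06, SE, adjusted p = 0.276). All 4 were above 0. Ndufa10, an accessory subunit of complex I, had 0.09, 0.22, 0.04 and 0.34. Cox18, which places a mitochondrially made complex IV subunit into the membrane, had -0.22, 0.46, 0.29 and 0.49 and so crossed 0. Across all 81 members, 3 (Cox11, Ndufa10 and Uqcrfs1) were above 0 and 2 (Cox6a2 and Ndufb7) below 0 on all 4 arrays.

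The members' median log2 ratio was 0.00, -0.12, 0.04 and 0.08 on proliferating arrays 1 to 4. Array 2 thus had 25 of 81 members above 0 and array 4 had 49. The SD over the 4 arrays had a median of 0.22 over members and reached 1.18 for Cox6a1, the common form of a complex IV subunit, whose probe was among those saturated. Its log2 ratios were -1.17 and -1.13 on arrays 1 and 3, where KO RNA carried Cy5, and 0.88 and 0.90 on arrays 2 and 4, where it carried Cy3. They followed the dye on the differentiating arrays as well, at -0.69 with Cy5 and 0.65 with Cy3, and the fitted KO effect with the dye as a term was -0.02 in differentiating and -0.13 in proliferating cells.

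**Figure D1:**
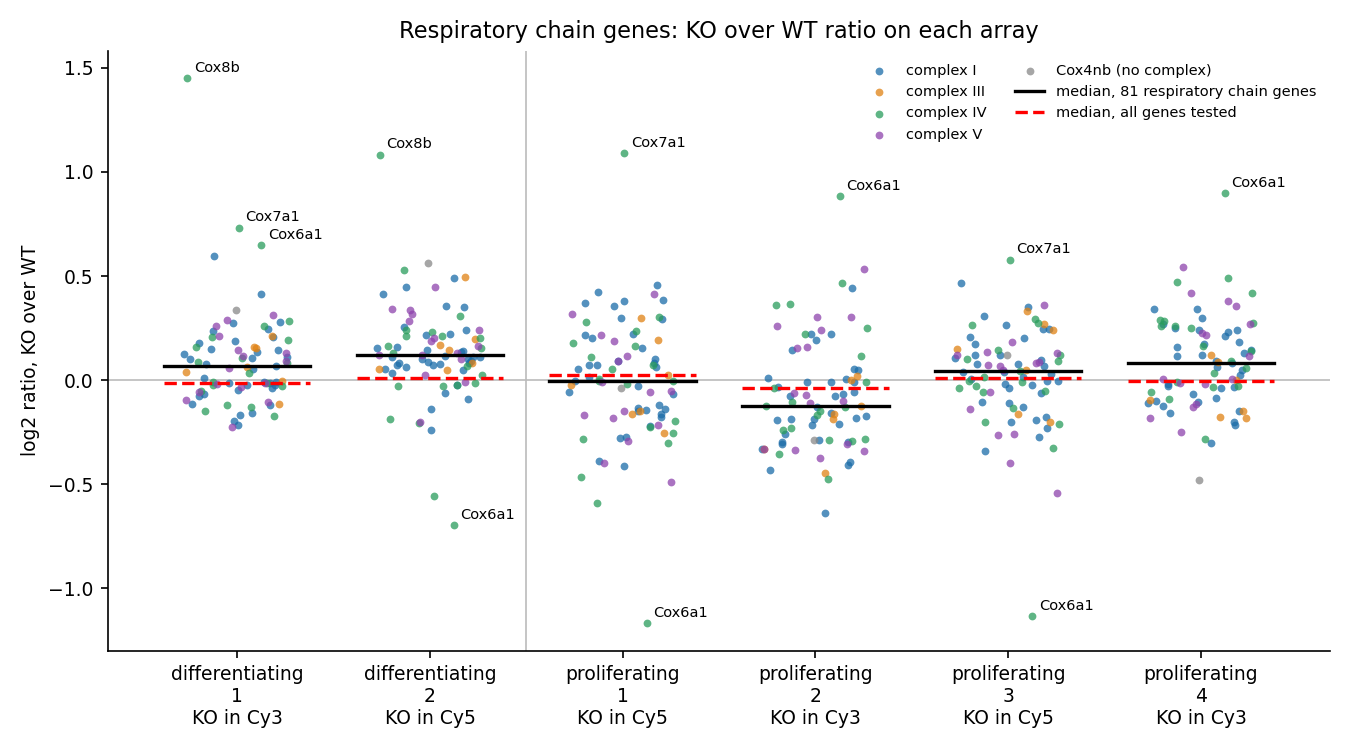
Log2 ratio of KO over WT (vertical axis) of the 81 tested members on each of the 6 arrays (horizontal axis, with the dye of the KO RNA), 1 point a gene, coloured by complex; black bars are the members' medians and red dashed bars the medians of all genes tested. Cox8b stands at 1.45 and 1.08 on the differentiating arrays, and Cox6a1 changes sign with the dye.

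In differentiating cells 1 of 81 members passed, Cox8b, which was higher in KO, where 3.08% of all genes tested passed. Unadjusted p values under 0.05 were found for 8 members, against 17.5% of all genes. Cox8b is the muscle and brown fat form of the smallest complex IV subunit, and Cox8a is the form that other tissues use. The Cox8b probe (chromosome 7, 137316216 to 137316275, build mm7) had log2 intensities of 7.91 and 7.45 in differentiating KO cells, against 6.46 and 6.36 in differentiating WT cells. In proliferating cells it had 6.19, 6.27, 6.17 and 6.41 in KO and 6.01, 6.39, 6.21 and 6.47 in WT. Both differentiating KO values stood above all 10 others, and these 2 channels were the ones in which the probe was well above background. Its log2 ratios were 1.45 and 1.08 on the differentiating arrays and 0.18, -0.12, -0.04 and -0.06 on the proliferating ones. With WT not well above background, Cox8b was at least 2.41-fold higher in differentiating KO than in differentiating WT cells (log2 1.27 ± 0.13, SE, adjusted p = 0.0172). It entered the tests through those 2 channels alone, since a gene had to be well above background on 2 arrays, so a gene admitted in this way was bound to be higher there, and its p has to be read with that. It also measured 2.68-fold higher in differentiating than in proliferating KO cells (limma, adjusted p = 0.00409), with the latter not well above background. This call ended without differentiating array 1 and without proliferating arrays 3 and 4 together (limma, adjusted p = 0.0895).

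The call for Cox8b needs both differentiating arrays: without array 1 its log2 ratio was 1.00 (adjusted p = 0.299) and without array 2 it was 1.53 (adjusted p = 0.208). From Agilent's processed signals the log2 ratio was 3.16 (adjusted p = 0.00479). The summed intensity of muscle markers was 721 to 848 in differentiating KO and 872 to 1170 in differentiating WT cells. Of these markers, 0 of the 3 that could be tested passed. Their log2 ratios were -1.24 for Myh7 (limma, adjusted p = 0.0736), -0.18 for Myog and 0.01 for Actc1. Ckm, Myh6 and Tnnt2 were not above background in differentiating cells of either genotype. In the same cells 8 of 8 oligodendrocyte markers had a log2 ratio above 0 and 5 passed. Of 7 neuronal markers 0 were above 0 and 5 passed as lower in KO, with the sums given above. Of 5 ependymal markers, Foxj1, Dnahc9 and Mlf1 were higher in KO (log2 1.27, 0.92 and 1.44) and Cd24a lower (-1.07); their summed intensity was 4460 to 6650 in KO and 6220 to 7560 in WT. Of 7 astrocyte markers, 4 had a log2 ratio above 0. Aqp4 was higher in KO (log2 2.91, limma, adjusted p = 0.00771) and Gfap had 2.64 (adjusted p = 0.101). Slc1a3, Aldoc and Slc1a2 had -0.96, -0.50 and -0.34, none past the test. The summed intensity of the 7 was 105000 to 131000 in KO and 104000 to 122000 in WT. The part of these cell types in the result was not tested.

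The promoters of Cox8b and Cox8a, and of the like pair Cox7a1 and Cox7a2, are shown because Dnmt3a acts on CpG and the 2 forms of each subunit differ in how many they hold. The windows run from 250 bases before to 50 bases after the gene's start (RefSeq, build GRCm38.p6), 5′ to 3′ on the gene's strand, with each CpG in capitals. They lie at chr7:140900397-140900696 (minus strand) for Cox8b, chr19:7217567-7217866 (minus) for Cox8a, chr7:30183921-30184220 (plus) for Cox7a1 and chr9:79759804-79760103 (minus) for Cox7a2.
Cox8b: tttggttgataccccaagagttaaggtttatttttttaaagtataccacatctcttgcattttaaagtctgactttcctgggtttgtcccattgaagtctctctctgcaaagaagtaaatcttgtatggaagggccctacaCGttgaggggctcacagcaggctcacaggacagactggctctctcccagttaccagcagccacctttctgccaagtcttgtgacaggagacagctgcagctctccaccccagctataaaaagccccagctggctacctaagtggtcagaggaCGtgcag
Cox8a: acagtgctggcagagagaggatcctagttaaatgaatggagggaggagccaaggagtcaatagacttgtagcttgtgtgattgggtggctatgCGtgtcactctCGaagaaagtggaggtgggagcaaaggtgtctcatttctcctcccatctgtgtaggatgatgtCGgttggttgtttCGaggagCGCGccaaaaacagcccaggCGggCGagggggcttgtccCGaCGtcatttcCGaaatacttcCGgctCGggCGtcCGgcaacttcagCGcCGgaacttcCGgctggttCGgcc
Cox7a1: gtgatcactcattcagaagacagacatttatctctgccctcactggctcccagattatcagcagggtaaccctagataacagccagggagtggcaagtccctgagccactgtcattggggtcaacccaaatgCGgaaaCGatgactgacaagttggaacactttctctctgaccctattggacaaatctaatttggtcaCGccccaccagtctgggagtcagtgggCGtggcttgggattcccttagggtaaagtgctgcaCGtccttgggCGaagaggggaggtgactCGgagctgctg
Cox7a2: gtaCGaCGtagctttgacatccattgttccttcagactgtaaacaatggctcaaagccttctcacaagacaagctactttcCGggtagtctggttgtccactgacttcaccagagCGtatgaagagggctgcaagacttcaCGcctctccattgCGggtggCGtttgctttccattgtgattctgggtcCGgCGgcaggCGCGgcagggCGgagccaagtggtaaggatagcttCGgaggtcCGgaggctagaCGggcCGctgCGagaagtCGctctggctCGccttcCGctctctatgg

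Cox8b has 2 CpG in this window and Cox8a 19, while Cox7a1 has 7 and Cox7a2 20. Promoter windows were found for 67 of the 83 members, 1 per gene, and held a median of 19 CpG (range 2 to 43), against a median of 7 over 27025 promoters. The 3 restricted paralogues among them held 2 (Cox8b), 7 (Cox7a1) and 10 (Cox6b2). The other 64 held a median of 20, and the lowest of these was Cox7b with 5. CCGGAA, the core letters of a site for ETS factors, was found on either strand in 38.8% of member windows and in 15.2% of all, and 3 times in Cox8a. GCGCATGCG, read in letters like those NRF1 binds, was in 11.9% of member windows and 1.81% of all, and AAGATGGCG, letters like those YY1 binds, in 10.4% and 1.49%. TATAAA was in 10.4% of member windows, Cox8b among them, and in 14.2% of all. All were searched on both strands, and GCGCATGCG matches on both strands can overlap. CCGGAA, GCGCATGCG and AAGATGGCG each contain a CpG, of which member windows hold more, and TATAAA contains none. Whether the shares differ from what the CpG content alone would give was not tested. No methylation was measured in these files.

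**Figure D2:**
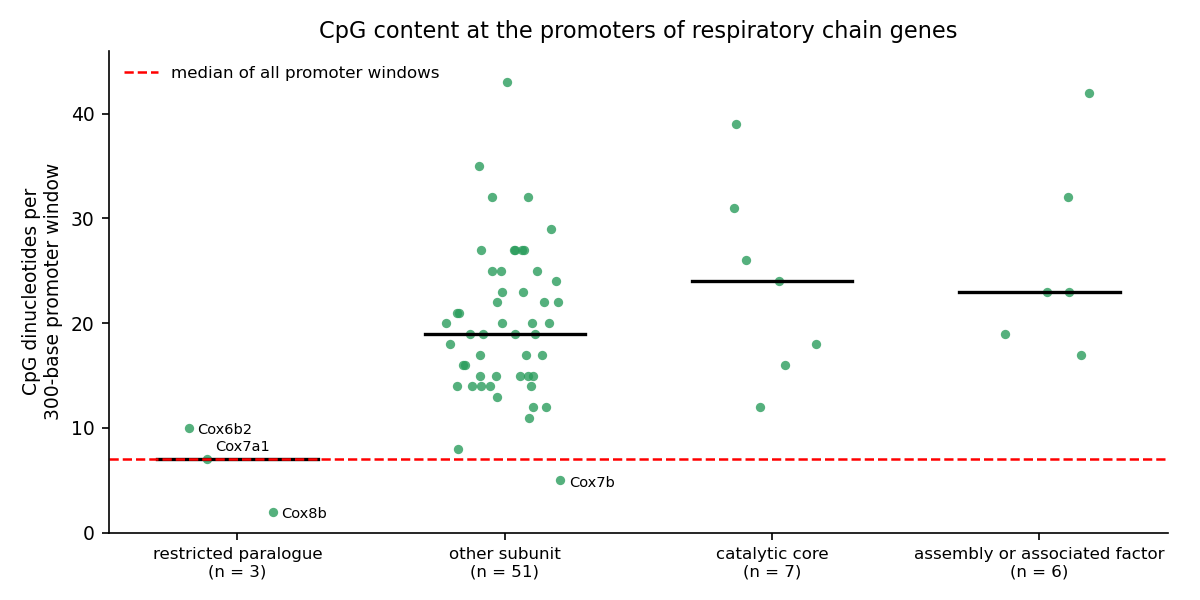
Number of CpG dinucleotides in the 300-base promoter window (vertical axis) of 67 members by role (horizontal axis), 1 point a gene; black bars are medians by role and the red dashed line is the median of 7 over 27025 promoters. Cox8b, with 2, holds the fewest among members.

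The other paralogues of restricted expression did not pass in either condition. Cox7a1, the heart and muscle form of a complex IV subunit, had log2 ratios of 0.73 and 0.23 on the differentiating arrays (0.48 ± 0.36, SD, n = 2) and 1.09, -0.17, 0.58 and 0.16 on the proliferating ones (0.42 ± 0.54, SD, n = 4). Its levels scattered between arrays, with 10.44 and 9.54 in differentiating KO against 9.71 and 9.31 in differentiating WT cells. The interval of its ratio in differentiating cells, -0.21 to 1.17, is the widest among the members tested and includes 0. Cox6a2, also a muscle form, had 0.11 and -0.56 on the differentiating arrays and -0.02, -0.15, -0.14 and -0.28 on the proliferating ones. Cox6b2, a testis form, had -0.05 and 0.13 in differentiating cells. Among the forms that most tissues use, Cox8a had -0.03 and -0.01 and Cox7a2 had 0.16 and 0.16 on the differentiating arrays.

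**Figure D3:**
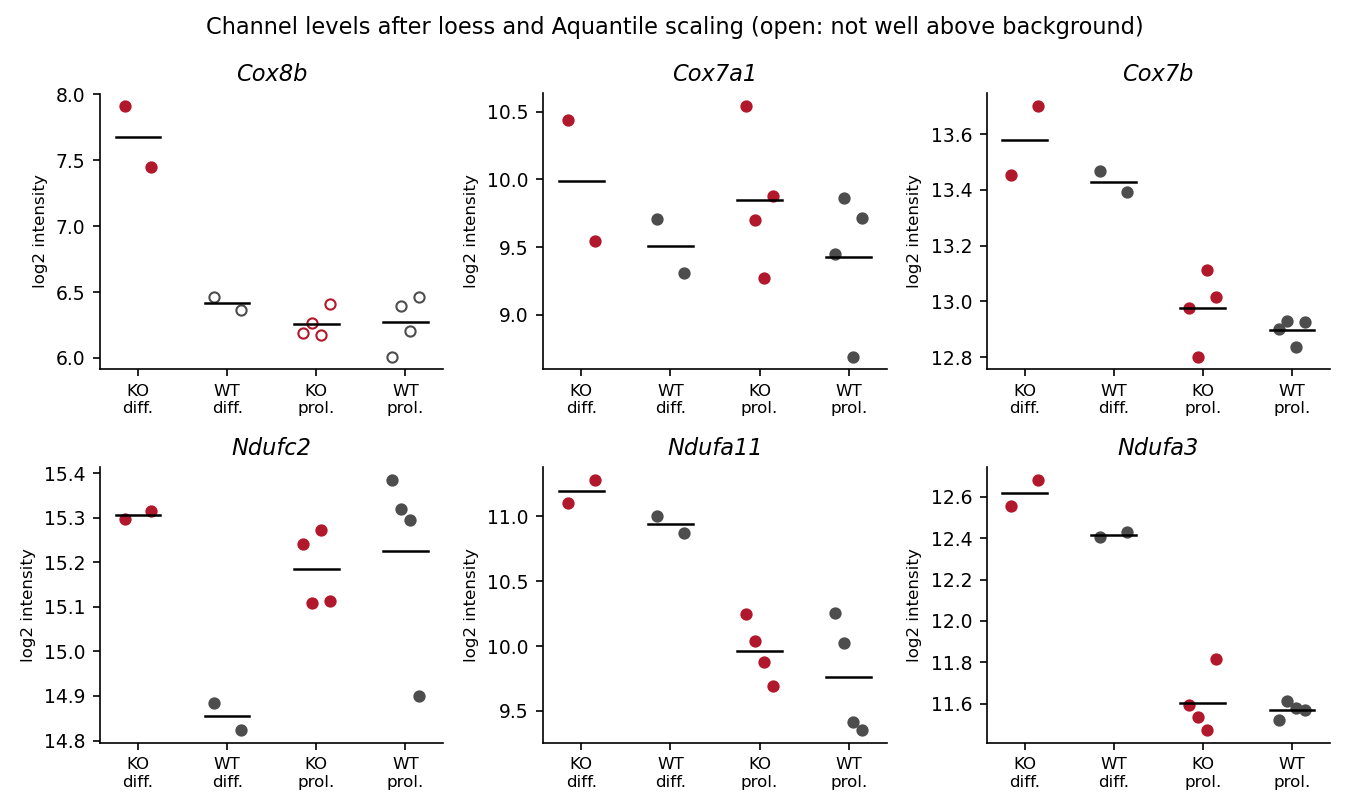
Log2 intensity (vertical axis) of 6 members in each channel, by genotype and condition (horizontal axis; diff. is differentiating, n = 2, and prol. is proliferating, n = 4), with bars at the means and open points for groups in which no array had the probe well above background. Cox8b is open everywhere except in differentiating KO cells; each panel has its own axis, the levels of different probes cannot be compared, and differences between conditions rest on the Aquantile scaling.

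Outside the restricted paralogues, the KO effect in differentiating cells ran from -0.23 (Ndufa5) to 0.45 (Ndufc2) over 77 members, none of which passed; 0.45 is 1.37-fold. The members as a whole lay slightly higher in KO. Their median log2 ratio was 0.11, against -0.01 for all genes, and 60 of 81 were above 0 (74.1%, against 48.3% of all genes). Some other lists leaned likewise: 17 of 23 glycolysis genes (median 0.24), 13 of 18 tricarboxylic acid cycle genes (0.10) and 12 of 14 chain genes of other names (0.15) were above 0. Hypoxia response genes (9 of 18 above 0, median -0.02) and mitochondrial biogenesis and mitochondrial DNA genes (6 of 19, -0.08) did not. For the members both arrays leaned the same way, with medians of 0.07 and 0.12. On them 41 members were above 0 on both, 9 below 0 on both and 31 of opposite sign. The interval lay within 1.5-fold for 69 of 81 members (85.2%, against 64.7% of all genes). The median stayed between 0.10 and 0.15 under every alternative listed in the closing section.

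Ndufc2, a membrane arm subunit of complex I, had log2 ratios of 0.41 and 0.49 in differentiating cells (adjusted p = 0.152) and -0.15, -0.21, -0.02 and 0.21 in proliferating cells. Uqcrfs1, the Rieske iron-sulfur protein of complex III, had 0.21 and 0.50 (adjusted p = 0.104), and its proliferating values ran from 0.00 to 0.27. Atp5o, the stalk subunit that confers oligomycin sensitivity on the ATP synthase, had 0.26 and 0.28 (adjusted p = 0.212). Ndufb8 and Ndufa10, both accessory subunits of complex I, had fitted ratios of 0.34 and 0.25. Cox4nb, which is no chain gene, had 0.34 and 0.56 (adjusted p = 0.0936), and its second probe gave a mean of 0.42.

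By complex, 26 of 36 members of complex I, 6 of 7 of complex III, 13 of 21 of complex IV and 14 of 16 of complex V were above 0 in differentiating cells, with medians of 0.09, 0.10, 0.12 and 0.14. The 10 catalytic core genes were all above 0, from 0.04 (Ndufv2, which holds an iron-sulfur cluster of complex I) to 0.35 (Uqcrfs1), with a median of 0.17 and none past the test. Ndufv1, the NADH-binding subunit, had 0.20, Ndufs1 0.22, and Atp5a1 and Atp5b, the subunits that form the ATP-making head, 0.17 each. In proliferating cells 6 of these 10 were above 0, with a median of 0.06. Cox4i1, the common form of a regulatory complex IV subunit, was counted with the other subunits and had 0.12 in differentiating cells. The 8 assembly or associated factors had a median of -0.06 in differentiating cells, and 3 of 8 were above 0: Cox17, a copper chaperone, at 0.37, Ndufaf1, an assembly factor of complex I, at 0.19, and Cox18 at 0.12. The second, dimmer probe of Cox17 gave a mean of 0.04.

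**Figure D4:**
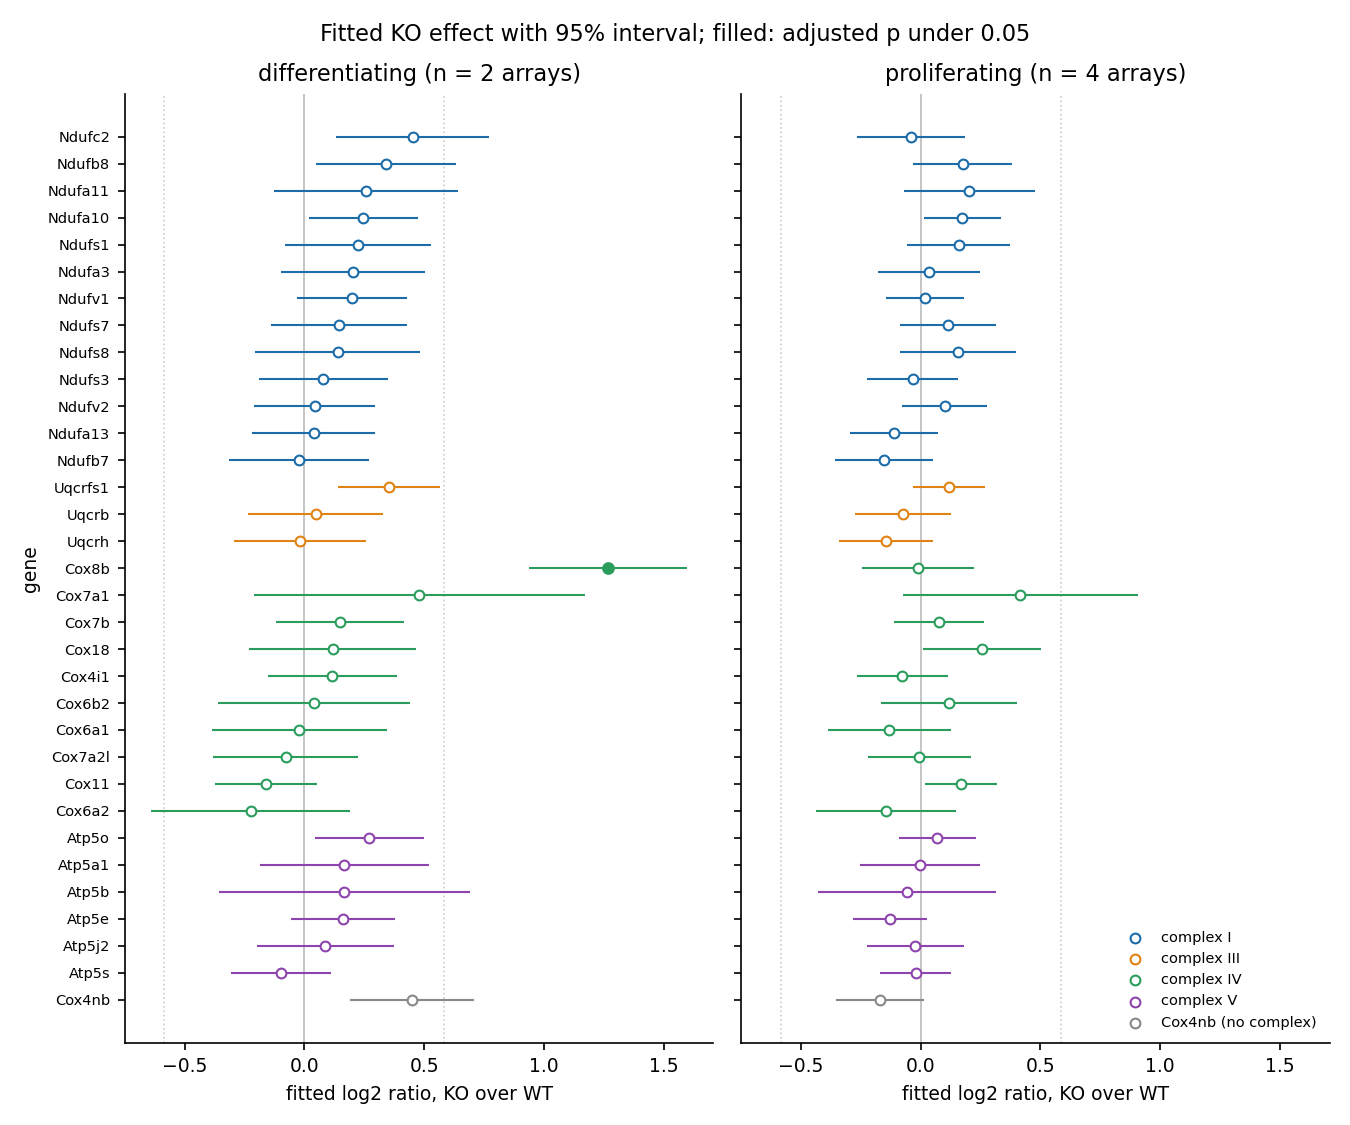
Fitted log2 ratio of KO over WT with its 95% interval (horizontal axis) for 33 of the tested genes singled out by the naming rule (vertical axis), in differentiating cells (left) and proliferating cells (right), coloured by complex; dotted lines mark 1.5-fold and a filled point an adjusted p under 0.05. Cox8b in differentiating cells is the filled point.

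Whether the KO effect differed between conditions was tested directly, as the differentiating effect minus the proliferating one. None of 81 members passed, where 0.0498% of all genes did, and 6 had an unadjusted p under 0.05, against 12.1% of all genes. Cox8b had the largest difference, 1.28 ± 0.16 (SE, adjusted p = 0.0888), which passed in 3 alternatives (Agilent's processed signals, adjusted p = 0.0244; array weights, 0.0399; the authors' deposited value table, 0.022). Cox8b entered the tests through the differentiating KO channels alone and so was bound to lean this way. Its p-values here have to be read with that. Cox4nb had 0.62 (adjusted p = 0.166) and Ndufc2 0.49 (adjusted p = 0.312). Of the 81 differences 62 were above 0. Cox11 went the other way, with log2 ratios of -0.12 and -0.20 on the differentiating arrays and all 4 proliferating values above 0, and a difference of -0.33 (adjusted p = 0.313).

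Mitogen withdrawal was examined within each genotype by setting differentiating against proliferating cells. All differentiating arrays share 1 slide and scan and all proliferating arrays another. The condition and the slide thus cannot be told apart here, unlike in the KO over WT ratios, which are taken within an array. Xist had log2 intensities of 11.28 and 11.06 in KO and 12.69 and 13.34 in WT on proliferating arrays 3 and 4. In all other channels, differentiating ones included, it had 5.92 to 6.08, so this sex-linked RNA differed between the conditions too. Fewer members, and fewer of all genes, were called without proliferating arrays 3 and 4, as the closing section gives. The direction also rests on the scaling between arrays. With Aquantile scaling, 10 of 81 members were higher and none lower in differentiating KO cells (7.68% and 6.75% of all genes), and 4 were higher and 1 lower in differentiating WT cells (7.35% and 6.55%), whereas without it the median of all genes fell by 0.29 in both genotypes, and 1 member was higher and 20 lower in KO (3.99% and 23.3% of all genes) and 0 higher and 21 lower in WT (3.92% and 22% of all genes). The members' share of lower calls without Aquantile scaling is thus near that of all genes. The members' median change was 0.14 in KO and 0.11 in WT with Aquantile scaling, against 0.00 for all genes in each, and -0.27 in KO and -0.38 in WT without it.

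Among the 10 called in KO, 3 belong to complex I, 4 to complex V and 2 to complex IV, and Cox4nb is the other. Ndufa3, an accessory subunit of complex I, had log2 intensities of 12.56 and 12.68 in differentiating KO cells against 11.59, 11.54, 11.47 and 11.82 in proliferating KO cells, a change of 1.02 (adjusted p = 0.00669). In WT it had 12.41 and 12.43 against 11.52, 11.61, 11.58 and 11.57, a change of 0.85 (adjusted p = 0.0122). The differentiating and proliferating values did not overlap in either genotype. Its second, dimmer probe changed by -0.03 in KO and -0.12 in WT. Ndufa11, a membrane arm subunit of complex I, changed by 1.23 in KO and 1.18 in WT (adjusted p = 0.018 and 0.0212), and its second probe, whose place overlaps the first, by 1.57 and 1.48. Atp5s, a factor tied to the ATP synthase and now named Dmac2l, changed by 0.82 and 0.89 (adjusted p = 0.0218 and 0.0163), and its second probe by 0.03 and 0.10. Cox7b, an X-linked complex IV subunit, changed by 0.60 and 0.53 (adjusted p = 0.0268 and 0.0422). Without Aquantile scaling, Ndufa3, Ndufa11 and Atp5s kept a positive change in both genotypes (0.29 to 0.70, none past the test), and Cox7b had 0.02 in KO and -0.05 in WT. The calls of all 4 genes in both genotypes also ended without differentiating array 1 (adjusted p = 0.0762 to 0.249) and without differentiating array 2 (adjusted p = 0.0840 to 0.251). Of 14 alternatives, Ndufa3 passed in 10 in KO and 8 in WT, Ndufa11 in 8 and 8, Atp5s in 7 and 8, and Cox7b in 6 and 6.

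These 4 genes were called in both genotypes, which is 40% of the KO calls and 80% of the WT calls; both comparisons use the same arrays and slides. The 6 called in KO alone were Cox8b (1.42), Cox4nb (1.07), Ndufb7 (0.65), Atp5j2 (0.59), Atp5e (0.50) and Atp5o (0.43). In WT these had 0.14, 0.45, 0.52, 0.48, 0.21 and 0.23, and the difference between the genotypes is the difference of KO effects above, in which none passed. Without Aquantile scaling, Cox8b was still called in KO (1.40, adjusted p = 0.00243), while Atp5e and Atp5o had -7e-04 and -0.02. Cox8b entered the tests through the differentiating KO channels alone, so its call under either scaling has to be read with that.

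With Aquantile scaling the 10 core genes had a median change of 0.06 in KO and -0.17 in WT, against 0.25 in KO and 0.16 in WT for the 58 other subunits. Ndufv2 (-0.56 in KO and -0.50 in WT) and Atp5a1 (-0.39 and -0.56) were low among the core, and Ndufs7, an iron-sulfur subunit of complex I, was high (0.38 and 0.35). The Atp5a1 probe used was saturated on some proliferating arrays, and the gene's second probe changed by -0.04 in KO and 0.06 in WT. Of the core genes 0 passed in KO and 1 in WT. The dimmer probes of Atp5b changed by -0.95 and -0.99 in KO and by -1.07 and -1.06 in WT. Its brightest probe, saturated on some arrays, changed by 0.09 in KO and by -0.13 in WT. Of 25 members with several probes, 4 in KO and 7 in WT had probes that differed by over 0.5 in this change, whereas none did so in the KO over WT ratio of differentiating cells.

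**Figure D5:**
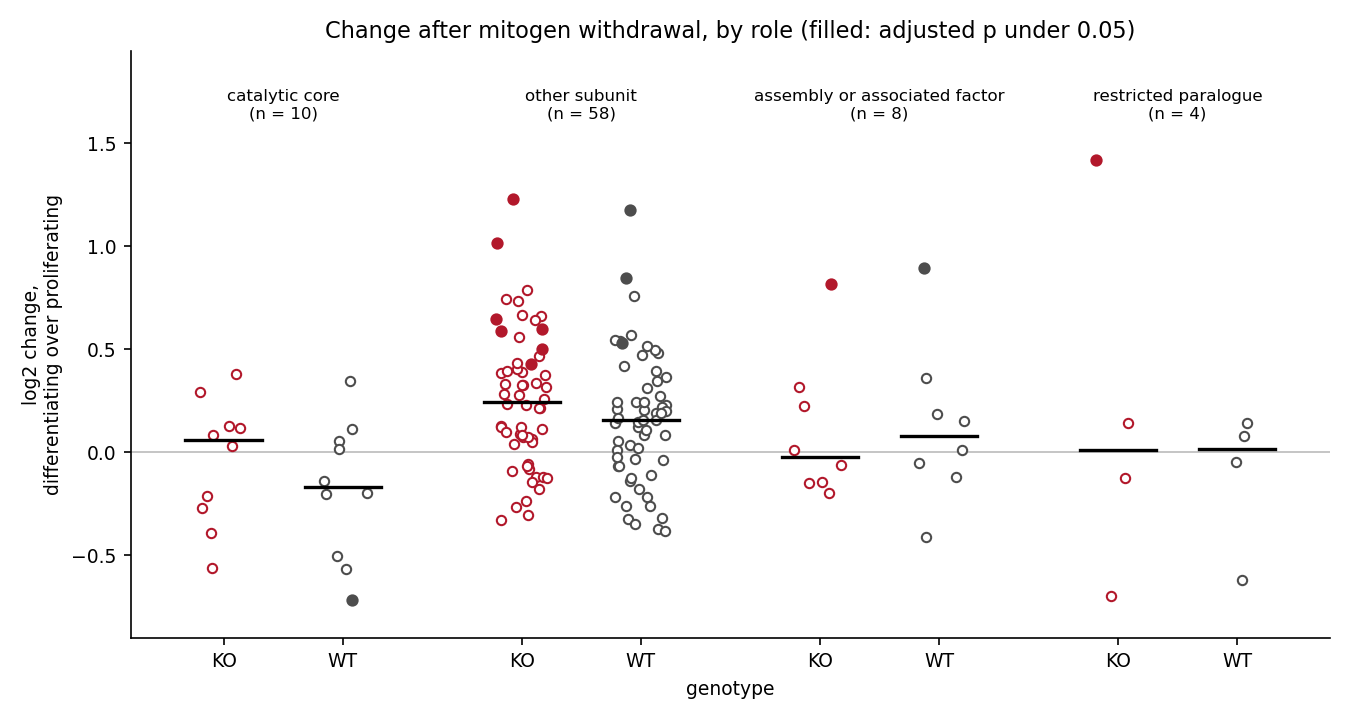
Log2 change of differentiating over proliferating cells (vertical axis, with Aquantile scaling) in KO and WT (horizontal axis) for the tested members by role, 1 point a gene, filled where the adjusted p was under 0.05, with bars at the medians. The 58 other subunits have medians of 0.25 in KO and 0.16 in WT; without Aquantile scaling the median over all members is below 0 in both genotypes.

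Other genes of energy metabolism were read on lists beside these. None of 18 tricarboxylic acid cycle genes passed for KO over WT in either condition. Of all genes tested 3.08% passed in differentiating and 0.952% in proliferating cells, so lists this short may hold no call. After withdrawal 5 of 18 were lower in KO (6.75% of all genes) and 4 lower in WT (6.55%). None was higher (7.68% and 7.35% of all genes), and the medians were -0.50 in KO and -0.54 in WT. Pdha1, the alpha subunit of pyruvate dehydrogenase, fell by 1.46 in KO and by 1.64 in WT, and Idh2, a mitochondrial isocitrate dehydrogenase, fell by 0.99 in each. None of 23 glycolysis genes passed for KO over WT. After withdrawal 2 of these 23 were higher in each genotype (7.68% of all genes in KO and 7.35% in WT). They were Aldoc, the brain aldolase (1.51 in KO and 1.47 in WT), and Pfkm, a phosphofructokinase. Pgk1, a glycolytic kinase, and Slc2a3, a glucose carrier, were the 2 lower in WT (6.55% of all genes), and none was lower in KO (6.75%). Counts this small lie near the shares of all genes. These changes are with Aquantile scaling and were not computed without it.

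Of 19 genes of mitochondrial biogenesis and mitochondrial DNA, Ppargc1a, a coactivator that raises transcription of respiratory genes, was higher in differentiating KO cells. Its log2 ratios were 0.62 and 0.67 (0.64 ± 0.11, SE, adjusted p = 0.0497), and 0.14, 0.53, 0.10 and 0.39 on the proliferating arrays (adjusted p = 0.172). All 6 were above 0, and the adjusted p lay just under the threshold. The list as a whole had 6 of 19 genes above 0 in differentiating cells, with a median of -0.08. Tfam, which packs mitochondrial DNA and starts its transcription, was not called for KO over WT and was higher after withdrawal in both genotypes (1.25 in KO and 0.98 in WT). Esrrg, an orphan nuclear receptor that drives oxidative genes, was higher after withdrawal in WT (0.79, adjusted p = 0.0142; 0.52 in KO, adjusted p = 0.0611), and Polg, the mitochondrial DNA polymerase, was lower in KO (-0.88, adjusted p = 0.0411; -0.48 in WT, adjusted p = 0.219). Of 21 assembly factors outside the name rule, Tmem70, a factor for complex V, was lower after withdrawal in KO (-0.79) and none passed for KO over WT. None of the 18 hypoxia response genes passed for KO over WT, nor did any of 14 chain genes of other names, such as the succinate dehydrogenase subunits and cytochrome c. A further 12 tested genes carry names of this pattern today but not in the array file (Ndufaf3 and Uqcr10, for example), and none of these passed for KO over WT either. The shares of all genes given above apply to these lists too, and lists this short may hold no call. After withdrawal, Adm, a hypoxia-induced peptide hormone, was lower in both genotypes (-2.71 in KO and -3.08 in WT), Car9, a carbonic anhydrase induced by hypoxia, was higher in WT (0.78), and Ndufaf3, an assembly factor of complex I, was lower in WT (-0.95).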

How the data were processed

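RNA of KO and WT cells (500 ng per label) was hybridised to 6 two-colour Agilent arrays. The deposited scanner files hold spot intensity values on a linear scale, extracted with Agilent Feature Extraction 9.5.1.1 per the file headers. Agilent's processed signals in them are background-subtracted and dye-normalized, and the files' log10 ratio sets Cy5 over Cy3, as deposited. The authors' deposited value table holds log10 ratios of KO over WT, as found by comparing it with the scanner files, with each column's median at 0.

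Mean intensities were background-corrected (normexp, offset 50) and loess-normalized within arrays in limma 3.58.1 (R 4.3.3); 1639 control spots per array had weight 0. Log2 ratios were fitted with lmFit and eBayes, with a coefficient per condition and a dye term. Withdrawal was fitted by channel (lmscFit) after Aquantile scaling. A gene was tested if its brightest probe was well above background on 2 or more of 6 arrays (18061 of 28785 genes), and p-values were Benjamini-Hochberg adjusted over all of them, with a threshold of 0.05. In each channel 52.3% to 59.1% of gene spots were well above background; the number of arrays limits the precision. Of 41174 probes, 22951 were named through their accession.

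Genes named in the text are, per comparison, those that passed (up to 12 each way, or the 6 of smallest p), the restricted paralogues, the catalytic core with Cox4i1, the brightest and dimmest of each complex, and up to 4 passing genes per other list. Members and lists were chosen with earlier results of these data known. The ratio fit was tried on simulated data for the KO effect in differentiating cells, and the fit by channel for withdrawal in WT. Alternatives covered background, normalization, the filter, the dye term, array weights, the probe rule and left-out arrays. One gene that this rule names is not reported here.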

Additional observations from a re-analysis of the deposited data

Results flagged for a closer look

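On proliferating array 2, the log2 ratio of KO over WT of 3 members lay far from their values on arrays 1, 3 and 4. Cox6b2 had -0.36 there and 0.27 to 0.28 on the others. Ndufa13, an accessory subunit of complex I, had 0.056 there and -0.18 to -0.15 on the others. Ndufs8, a core subunit of complex I, had -0.19 there and 0.24 to 0.30 on the others. These were 3 of 37 groups examined with Dixon's ratio, and chance puts about 1 in 20 groups past it. Cox11 was below 0 on both differentiating and above 0 on all 4 proliferating arrays, and the difference of -0.33 did not pass the test (limma, adjusted p = 0.313).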

How the results depend on the processing

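In proliferating cells the count of members called for KO over WT was 0 under every alternative run. In differentiating cells it was 5 with array weights, 0 to 1 with arrays left out (0 without either differentiating array) and 0 with the replicate block, and 1 otherwise. The count for the difference of KO effects was 1 with Agilent's processed signals, array weights or the authors' value table, and 0 otherwise. For withdrawal the count (10 in KO, 5 in WT) was 5 in KO with processed signals. Without proliferating arrays 3 and 4 together it was 4 in KO and 1 in WT. Without Aquantile scaling it was 21 in each genotype, the members' median was -0.27 in KO and -0.38 in WT, and Cox7b in WT (-0.048), Atp5e in KO (-7e-04) and Atp5o in KO (-0.018) changed sign. With arrays left out it was 0 to 17 in KO and 0 to 9 in WT. Cox8b in differentiating cells lost its call without differentiating array 1 or 2 and with the replicate block (adjusted p = 0.06); its adjusted p ran between 0.00302 and 0.299.

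The count over all genes in proliferating cells (172) was 278 with processed signals, 270 with the authors' table, 306 with no normexp offset, 101 with no filter, 0 with those arrays alone and 0 to 171 with arrays left out. In differentiating cells (557) it was 1836 with array weights, 1586 with those arrays alone, 285 with median centring, 970 without proliferating arrays 3 and 4, and 0 to 534 with arrays left out. For the difference (9) it was 0 to 138. For withdrawal (2605 in KO, 2509 in WT) it was 4920 and 4670 without Aquantile scaling, 1178 and 949 without proliferating arrays 3 and 4, and 120 to 4629 and 165 to 3723 with arrays left out.

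Replicate numbers are shared between conditions, but the labels do not say that they mark a shared culture. Deviations of same-numbered arrays, taken without a dye term, correlated at -0.369 and -0.288. Same-numbered arrays carried KO RNA in opposite dyes, and over all pairs of arrays the sign of the correlation followed the dye. These correlations therefore cannot tell whether cultures were shared. With the replicate block the members called on withdrawal were 21 in KO and 17 in WT, and all genes called were 426 (proliferating), 314 (differentiating), 6222 (KO withdrawal) and 5774 (WT withdrawal). The slide as a random block, the differentiating arrays alone with a dye term, and the block with a dye term could not be fitted and were not run. Cause was not tested for any of these changes. Levels of Cox4i2 and Cox8c, dim on all arrays, have only an upper limit.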

Other observations

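Cox8b belongs to the genes typical of brown fat, and other such genes were read after its values were seen. Cidea, a lipid droplet protein of brown fat, had log2 ratios of KO over WT of 3.70 and 2.87 in differentiating cells (9.73-fold, limma, adjusted p = 0.00849) and 0.29, 0.51, 0.03 and 0.01 in proliferating cells (adjusted p = 0.515). The difference between conditions was 3.07 (adjusted p = 0.0443). Dio2, which activates thyroid hormone, had 0.66 (adjusted p = 0.307), Pparg, a fat cell regulator, 0.37 (adjusted p = 0.218) and Prdm16, a brown fat regulator, -0.93 (adjusted p = 0.26) in differentiating cells. Ucp1, Elovl3 and Fabp4 were too dim to be tested.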
